A study of Homo sapiens with 6 samples.

Results

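Sialyltransferases are Golgi enzymes that transfer sialic acid from its nucleotide donor to the ends of glycans on glycoproteins and glycolipids. The ST3GAL enzymes place it on the 3-position of galactose, ST6GAL1 on the 6-position of galactose, mainly on N-glycans, and the ST6GALNAC enzymes mainly on the 6-position of N-acetylgalactosamine. Sialylated glycans at the cell surface take part in adhesion, in recognition by lectins and in signalling of receptors, and their levels are often altered in carcinomas. The expression of 10 sialyltransferase genes (ST3GAL1, ST3GAL2, ST3GAL3, ST3GAL4, ST3GAL5, ST3GAL6, ST6GAL1, ST6GALNAC2, ST6GALNAC4 and ST6GALNAC6) was examined here. Their probes were those whose transcript accession belongs to one of these genes in the RefSeq table. This gave 12 probes of 50599 on the array, for 10 genes of 21743 that could be named. All 12 probes passed the filter on dim probes, which kept 18464 probes of 11974 named genes, and 8 of the 12 were well above background on all 6 arrays. Above background, here and below, means that the scanner software marked the spot as well above it, and a spot without that mark can still have a positive signal. ST3GAL3 had 3 probes and each other gene 1.

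The cells were MDA-MB-231, an established line of human breast cancer with mesenchymal features. A first group received a precursor of hsa-miR-205-5p, another group a precursor of hsa-miR-214-3p and the last group a scrambled control, each at 30 nM and with RNA taken at 72 h. Each group had 2 arrays. Each array measured total RNA labelled with 1 dye, so a value is the summed RNA of the whole culture, in which fewer cells of a kind and less RNA per cell cannot be told apart. All groups are of 1 cell line, and nothing in the labels says whether the replicates were separate cultures, so the p-values below measure only the spread between these arrays, whose number limits the precision. The study names ST3GAL1 as a target of hsa-miR-205-5p and ST6GAL1 as a target of hsa-miR-214-3p, in part from these same arrays, so their direction here is not independent evidence.

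Both precursors give rise to the mature miRNAs printed here, which the study introduced into the cells. A mature miRNA guides the silencing complex to transcripts largely through its seed, bases 2 to 8, which is in capitals. The sequences are from RefSeq (GRCh38.p14).
hsa-miR-205-5p: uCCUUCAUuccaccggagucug
hsa-miR-214-3p: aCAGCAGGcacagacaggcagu
The first lies at chr1:209432166-209432187 on the plus strand and the second at chr1:172138816-172138837 on the minus strand. Of the 2370 human mature miRNAs in the table, 1 had the seed of hsa-miR-205-5p, which is that miRNA itself, and 3 had the seed of hsa-miR-214-3p, the others being hsa-miR-3619-5p and hsa-miR-761. The letters that pair with the seeds are AUGAAGG and CCUGCUG. Transcripts were not searched for them.

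Between 35.5% and 42.2% of the spots on an array were well above background, and 0 were saturated. All 7 markers of basal and mesenchymal breast cancer lines, among them VIM and CD44, were well above background on all 6 arrays, and their summed level lay between 9.85 and 9.95 (log2). Of 6 luminal epithelial markers, ESR1, PGR and FOXA1 were above background on 0 arrays, and GATA3, CDH1 and EPCAM on all 6. The summed level of these 6 was 3.33 and 3.69 on the hsa-miR-205-5p arrays, and between 1.72 and 1.83 on the other 4 arrays. Of 3 leukocyte markers, CD68 was above background on 6 arrays, PTPRC on 2 and CD3E on 0. Their summed level was 2.06 and 2.37 with hsa-miR-205-5p, 3.31 and 3.33 with hsa-miR-214-3p, and 2.88 and 3.45 in the control. Of 3 endothelial markers, PECAM1 was above background on 3 arrays, and VWF and CDH5 on 0, with summed levels of -1.27 and -1.03, -0.75 and -0.58, and -0.21 and -0.14 in the same order of groups. The part of these marker levels in the results below was not tested.

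With hsa-miR-205-5p, ST6GALNAC6, ST3GAL1 and the brightest ST3GAL3 probe fell against the scrambled control, each by more than 2-fold. ST6GALNAC6 acts mainly on gangliosides, ST3GAL1 caps the core 1 O-glycan, and ST3GAL3 acts on chains that end in galactose and N-acetylglucosamine. Over all probes, 8.05% were called lower and 4.14% higher there. With hsa-miR-214-3p, none of the 12 probes was called, beside 1.68% and 0.991% of all probes. The largest difference in that comparison was at ST6GAL1, at -1.83 on the log2 scale, with an adjusted p of 0.0502 in limma. The 2 precursors differed from each other at 4 probes of 12, beside 11.6% of all probes lower and 8.37% higher with hsa-miR-205-5p. ST3GAL1, ST6GALNAC2 and ST6GALNAC6 were lower with hsa-miR-205-5p and ST6GAL1 was higher. The 3 comparisons share their arrays, so they are not independent of one another.

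**Figure D1:**
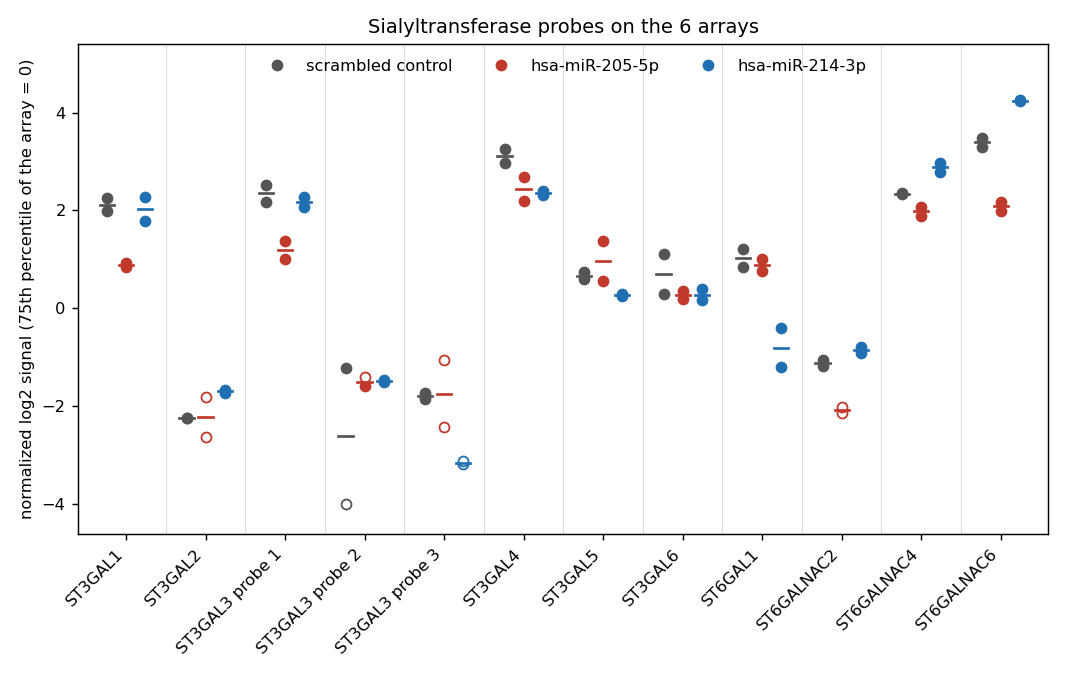
Normalized log2 signal (vertical axis, each array's 75th percentile set to 0) of the 12 sialyltransferase probes on the 6 arrays, with points for arrays, bars for group means, colours for the groups and open points where the probe was not well above background. The ST3GAL1 and ST6GALNAC6 points of hsa-miR-205-5p lie below those of both other groups, and those of hsa-miR-214-3p are the lowest for ST6GAL1. Levels of different probes are not comparable with each other.

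ST3GAL1 transfers sialic acid to galactose of the core 1 O-glycan. Its normalized log2 signal was 0.84 and 0.93 on the hsa-miR-205-5p arrays, 2.27 and 1.78 on the hsa-miR-214-3p arrays and 1.99 and 2.25 on the scrambled control arrays. Both hsa-miR-205-5p arrays lay below the other 4, while the hsa-miR-214-3p and control arrays overlapped. Against the control the difference was -1.23 ± 0.22 (SE, 2 arrays per group), with a 95% interval from -1.80 to -0.67 and an adjusted p of 0.0220 in limma. With hsa-miR-214-3p it was -0.10 ± 0.22, with an interval from -0.66 to 0.47. The call against the control held under 11 of 20 alternative settings. It was lost when any array other than scrambled control replicate 1 was left out, with values between -1.28 and -1.11 and adjusted p values from 0.0520 to 0.0907 in those limma fits, and with normexp, a model-based background correction, at -0.96.

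ST6GAL1, which adds sialic acid to the galactose ends of N-glycans, had the opposite arrangement. It read 1.00 and 0.77 with hsa-miR-205-5p, -0.41 and -1.19 with hsa-miR-214-3p, and 1.22 and 0.84 in the control. The hsa-miR-214-3p arrays were the lowest of the 6 and did not overlap either other group, while the hsa-miR-205-5p and control arrays overlapped. The difference from the control was -1.83 ± 0.31 with hsa-miR-214-3p (interval -2.60 to -1.06, unadjusted p of 0.00142 and adjusted p of 0.0502 in limma), which missed the threshold. It was -0.14 ± 0.31 with hsa-miR-205-5p. The difference between the 2 hsa-miR-214-3p arrays, 0.78, was larger than between the 2 arrays of either other group. The probe was called in 6 of 20 alternative settings, among them the fit without scrambled control replicate 2 (-2.02, adjusted p = 0.0462 in limma). With normexp its difference was -0.82, the smallest of all settings, and was not called.

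ST6GALNAC6 had its 3 groups in separate ranges. Its signal was 2.18 and 1.99 with hsa-miR-205-5p, 3.30 and 3.49 in the control, and 4.25 and 4.23 with hsa-miR-214-3p. With hsa-miR-205-5p it was 2.47-fold lower than in the control (-1.30 ± 0.17, adjusted p = 0.0110 in limma). With hsa-miR-214-3p the difference was +0.85 ± 0.17 (1.80-fold), which did not pass (adjusted p = 0.0644 in limma). The fall with hsa-miR-205-5p missed the threshold without hsa-miR-205-5p replicate 2 (-1.21, adjusted p = 0.0663 in limma). ST6GALNAC4, which acts on O-glycans and lies on chromosome 9 like ST6GALNAC6, had the same order of groups. It read 2.08 and 1.89 with hsa-miR-205-5p, 2.35 and 2.34 in the control, and 2.79 and 2.97 with hsa-miR-214-3p. Its differences from the control, -0.36 ± 0.17 and +0.53 ± 0.17, did not pass (adjusted p of 0.180 and 0.148 in limma).

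ST6GALNAC2, an enzyme of O-glycans, was dim. It read -1.05 and -1.18 in the control and -0.91 and -0.78 with hsa-miR-214-3p, all 4 above background. With hsa-miR-205-5p it read -2.13 and -2.01, and both arrays were not well above background. The 2 hsa-miR-205-5p arrays lay below the other 4. Its level with hsa-miR-205-5p is therefore only a bound, at least 1.41-fold lower than in the control (adjusted p = 0.0186 in limma, measured difference -0.95). That difference was under the 2-fold limit, so the probe was not called. It was called in 5 of 19 alternative settings, with quantile scaling (-1.09), median scaling (-1.34), the authors' table (-1.02), no limit on fold change, and without scrambled control replicate 2 (-1.02). With normexp the difference was -0.10. For such bounds, here and below, a dim array was given the faintest signal that still counted as above background there, or its own value if higher. Spots without the mark can read higher than that signal, so the bounds rest on this choice and are not strict.

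ST3GAL3 gave different readings through its 3 probes. The brightest read 1.38 and 1.00 with hsa-miR-205-5p, 2.07 and 2.28 with hsa-miR-214-3p and 2.18 and 2.52 in the control. The hsa-miR-205-5p arrays lay below the others, and the difference from the control was -1.16 ± 0.22 (2.23-fold, adjusted p = 0.0244 in limma). As for ST3GAL1, the call was lost when any array other than scrambled control replicate 1 was left out, with values between -1.35 and -0.97, and with normexp, at -0.89. The second probe read -1.59 and -1.40 with hsa-miR-205-5p, -1.51 and -1.46 with hsa-miR-214-3p and -3.99 and -1.22 in the control. This probe was tested only through the hsa-miR-214-3p arrays, since it was above background on 1 array of each other group. The precursor arrays lay between its 2 control arrays, and its differences of +1.11 ± 0.85 and +1.12 ± 0.85 did not pass. The lower control reading, of replicate 1, was not well above background and is only a bound, so no size can be given against that array alone. Without replicate 1 the differences were -0.27 and -0.26. The third probe was not well above background on any of the 4 precursor arrays, and was tested only because both control arrays had that mark, at dim readings. It read -1.73 and -1.86 in the control and -3.18 and -3.12 with hsa-miR-214-3p, a bound of at least 1.15-fold lower (adjusted p = 0.159 in limma). With hsa-miR-205-5p it read -2.43 and -1.06, a spread that overlapped the control, and the second of these arrays read higher than both control arrays. The fall of ST3GAL3 thus rests on 1 of its 3 probes.

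ST3GAL4 and ST3GAL6 act on similar chains and take part in the synthesis of sialyl-Lewis structures. ST3GAL4 read 2.19 and 2.69 with hsa-miR-205-5p, 2.40 and 2.31 with hsa-miR-214-3p and 3.26 and 2.96 in the control. All 4 precursor arrays were below both control arrays. The differences were -0.68 ± 0.23 and -0.75 ± 0.23 with adjusted p values of 0.0960 and 0.142 in limma, so neither passed. ST3GAL6 read 0.35 and 0.20, 0.39 and 0.17, and 0.30 and 1.12 in the same order of groups. Its control arrays differed from each other by 1.76-fold, more than the differences from the control of -0.43 and -0.42. That probe is printed 10 times on the array, and the coefficient of variation over its spots was between 8.37% and 21.9% within an array.

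**Figure D2:**
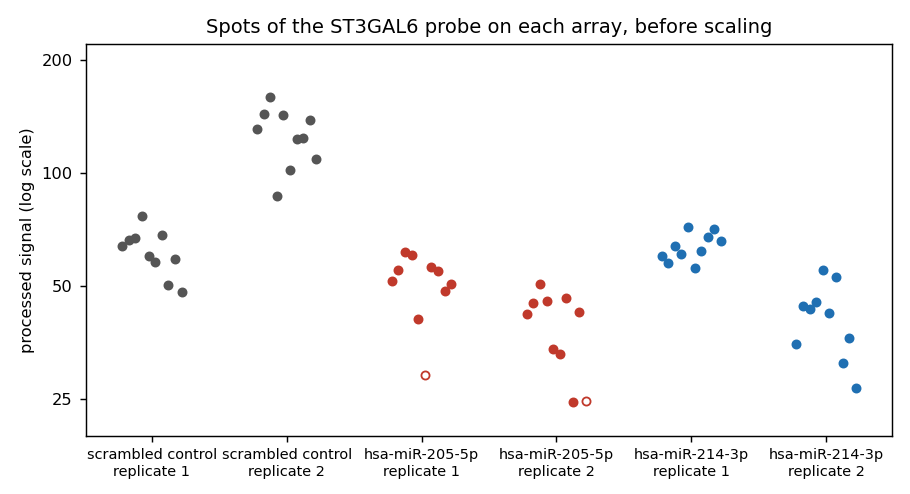
Processed signal (log axis, arbitrary units, before scaling between arrays) of the 10 spots of the ST3GAL6 probe on each array, with colours for the groups and open points for the spots marked as outliers, 1 on each hsa-miR-205-5p array. Spots of scrambled control replicate 2, from 86.6 to 158.7, lie above those of replicate 1, from 48.2 to 77.0.

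ST3GAL5 makes the ganglioside GM3 from lactosylceramide. It read 1.37 and 0.55 with hsa-miR-205-5p, 0.29 and 0.25 with hsa-miR-214-3p and 0.60 and 0.74 in the control. The hsa-miR-205-5p replicates lay on either side of the control, and neither difference (+0.30 ± 0.29 and -0.40 ± 0.29) passed. ST3GAL2, which acts on core 1 O-glycans and on glycolipids, was near background throughout. It was above background on 0 hsa-miR-205-5p arrays, on 2 hsa-miR-214-3p arrays, through which alone it passed the filter, and on 1 control array, with normalized signals from -2.63 to -1.66, so no size is given for its differences, neither of which passed.

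Over the 12 probes, 3 were called lower and 0 higher with hsa-miR-205-5p against the control, where 8.05% of all tested probes were called lower and 4.14% higher. Their median difference was -0.39, beside 0.05 over all probes, and 8 of 12 were below 0. With hsa-miR-214-3p, 0 were called in limma, beside 1.68% lower and 0.991% higher over all probes, with 5 of 12 at an unadjusted p under 0.05, beside 22.6% of all probes. That count was likewise 5 of 12 with hsa-miR-205-5p, beside 37.2%, and 7 of 12 between the precursors, beside 46.1%. The 7 take in the third ST3GAL3 probe, which was not well above background on any of the 4 arrays compared there. With hsa-miR-214-3p against the control, the methods' t-test at unadjusted p and 2-fold called 1, beside 2.57% of all probes lower and 1.54% higher, and 0 after Benjamini-Hochberg adjustment. That 1 was again the third ST3GAL3 probe, tested only because of the control, in which it is higher, so its call is no evidence of a difference. It is also 1 of the 5 with hsa-miR-214-3p. The median there was -0.13, beside -0.01 over all probes. In that comparison, 0 of all 18464 probes were called in limma once any 1 of the 6 arrays was omitted, scrambled control replicate 2 excepted. Likewise, without hsa-miR-205-5p replicate 2, 0 of all probes were called with hsa-miR-205-5p against the control, which takes in every call given here for that comparison. Both comparisons use the same 2 control arrays. The arrays did not overlap between groups at 6 of 12 probes with hsa-miR-205-5p, all lower, and at 8 of 12 with hsa-miR-214-3p, 4 lower and 4 higher. The last counts take in the third ST3GAL3 probe as lower and ST3GAL2 as higher, each tested only because of the group in which it is higher. Over all probes, 28.7% lay apart as lower and 33.6% as higher with hsa-miR-205-5p, and 28.6% and 26.8% with hsa-miR-214-3p. The split of lower and higher calls moved with the scaling and with the normexp setting, which also used median signals and an offset of 50. With arrays scaled to the median, the median difference of all probes was -0.34 with hsa-miR-205-5p and -0.17 with hsa-miR-214-3p, and 15.8% were called lower and 1.49% higher with the former and 1.98% and 0.357% with the latter. In that setting 5 sialyltransferase probes were called lower with hsa-miR-205-5p, ST3GAL4 (-1.07) and ST6GALNAC2 (-1.34) besides the others. With normexp correction the shares were 4.56% and 0.807%, and 1.32% and 0.244%.

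**Figure D3:**
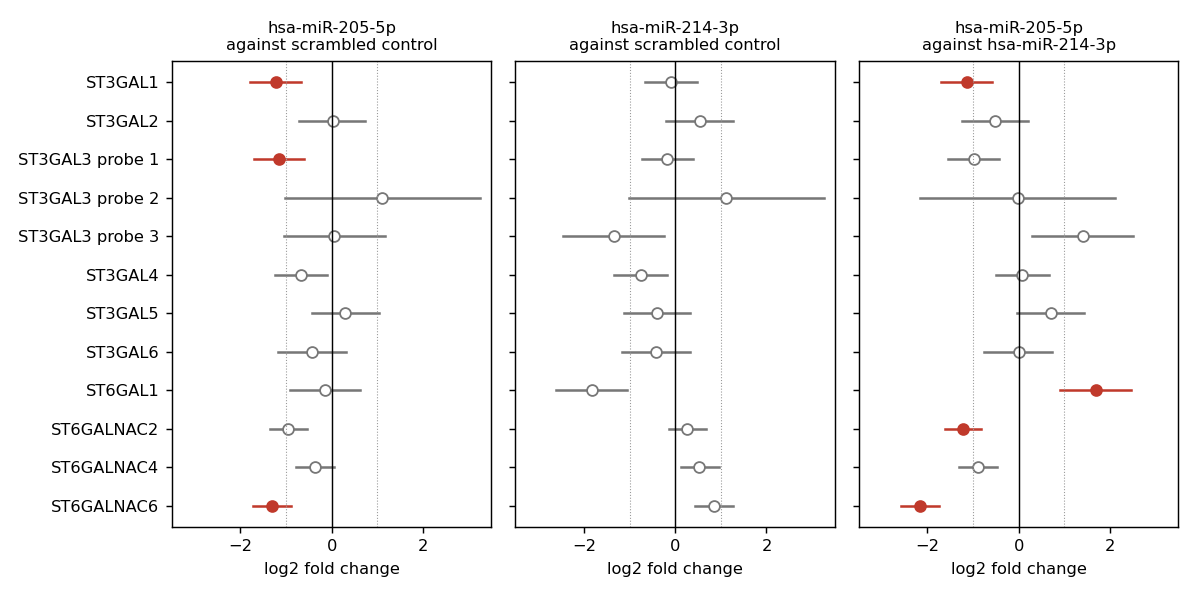
Log2 fold change (horizontal axis) of each sialyltransferase probe with its 95% interval from limma in the 3 comparisons, with filled red points for called probes and dotted lines at 2-fold. Called points number 3, 0 and 4 from left to right. The ST6GAL1 interval with hsa-miR-214-3p, from -2.60 to -1.06, lies below 0 although its adjusted p missed the threshold.

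Set directly against each other, the precursors differed most at ST6GALNAC6, which was 4.45-fold lower with hsa-miR-205-5p (-2.15 ± 0.17, interval -2.57 to -1.74, adjusted p = 0.00383 in limma). This call held under all 20 alternative settings. ST3GAL1 was 2.20-fold lower with hsa-miR-205-5p (-1.14 ± 0.22, adjusted p = 0.0181) and ST6GAL1 3.22-fold higher (+1.69 ± 0.31, adjusted p = 0.0146), both in limma. ST6GALNAC2 was at least 1.70-fold lower with hsa-miR-205-5p (adjusted p = 0.00668 in limma, measured difference -1.22). ST3GAL3 through its brightest probe (-0.98) and ST6GALNAC4 (-0.89) had adjusted p values of 0.0255 and 0.0156 in limma and were under 2-fold. In this comparison 3 of 12 probes were called lower and 1 higher, beside 11.6% and 8.37% of all probes (15.4% and 4.79% with arrays scaled to the median), and 9 of 12 did not overlap between the groups, 6 lower and 3 higher, beside 35.2% and 43.2%. These counts take in ST3GAL2 as lower, tested only because of hsa-miR-214-3p, and the third ST3GAL3 probe as higher, which was not well above background on the 4 arrays compared. The calls of ST3GAL1 and ST6GALNAC2 were lost without either hsa-miR-214-3p replicate, at -0.89 and -1.39 for ST3GAL1 and -1.29 and -1.16 for ST6GALNAC2. That of ST3GAL1 was also lost without either hsa-miR-205-5p replicate, at -1.09 and -1.19. That of ST6GAL1 was lost without hsa-miR-214-3p replicate 2 (+1.30) and without either hsa-miR-205-5p replicate, at +1.57 and +1.80. With normexp all 3 lost the call, at -0.81 for ST3GAL1, -0.27 for ST6GALNAC2 and +0.57 for ST6GAL1.

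**Figure D4:**
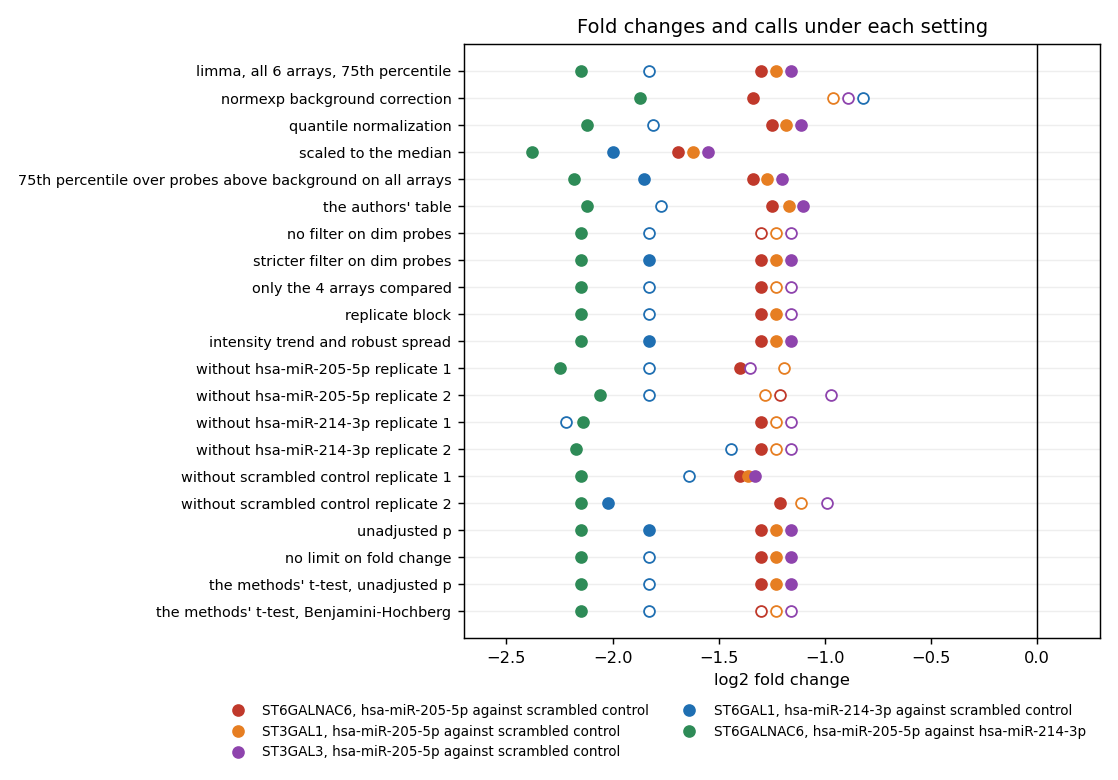
Log2 fold change (horizontal axis) of 4 sialyltransferases in the comparisons given in the key, under the main setting in the top row and the 20 alternatives below it, with filled points where the probe was called. Only the points of ST6GALNAC6 between the precursors are filled in every row, and ST6GAL1 with hsa-miR-214-3p is filled in 6 of the 20 alternatives.

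Across the 6 arrays, the levels of 714 of 10228 genes correlated with ST3GAL1 at a Pearson r over 0.9, led by WDR59 (r = 0.996), GNAI1 (r = 0.992) and TRMT10A (r = 0.992). For ST6GAL1 there were 503, led by TSTD1 (r = 0.998) and TMCC2 (r = 0.996). These correlations describe 6 points that fall into 3 groups and carry no test.

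The enzymes that build the chains which sialyltransferases cap were examined next. B3GNT3 extends core 1 O-glycans and B3GNT8 extends branched N-glycans. B3GNT3 read 6.18 and 6.69 with hsa-miR-205-5p, 1.75 and 1.98 with hsa-miR-214-3p and 4.19 and 3.65 in the control, in separate ranges. It rose by 2.52 ± 0.28 with the former and fell by 2.05 ± 0.28 with the latter (adjusted p of 0.00898 and 0.0370 in limma). B3GNT8 read 3.30 and 3.37, 0.61 and 0.69, and 1.94 and 1.63 in the same order. It rose by 1.56 ± 0.18 and fell by 1.13 ± 0.18 (adjusted p of 0.00914 and 0.0444 in limma). Between the precursors they differed by 4.57 and 2.68. Without hsa-miR-205-5p replicate 2 the 2 rises missed the threshold, at 2.26 and 1.52. The 2 falls with hsa-miR-214-3p missed it without any 1 of the arrays other than scrambled control replicate 2, at -2.17 to -1.78 and -1.17 to -0.97, and that of B3GNT8 also with normexp, at -0.80.

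Among O-glycan core enzymes, 9 of 15 listed genes were tested, with 10 probes. With hsa-miR-205-5p, 2 probes were called higher and 0 lower, beside 4.14% and 8.05% of all probes, and 2 of the 10 were below 0 (median 0.67). The called probes were those of B3GNT3 and of C1GALT1, the core 1 synthase (+1.30 ± 0.15). With hsa-miR-214-3p, 0 were called higher and 2 lower, beside 0.991% and 1.68% of all probes, and 5 were below 0 (median -0.24). They were B3GNT3 and GALNT7, which adds further N-acetylgalactosamine to glycopeptides (-1.44 ± 0.18). Between the precursors 4 were called higher with hsa-miR-205-5p and 0 lower, beside 8.37% and 11.6% of all probes. These were B3GNT3, GALNT7 (+1.57), GALNT10 (+1.05) and the dimmer probe of GALNT1 (+1.20), whose brightest probe was at +0.85 and was not called. C1GALT1 lost its call with normexp (+0.64), with arrays scaled to the median (+0.91) and without hsa-miR-205-5p replicate 2 (+1.35). GALNT7 lost that with hsa-miR-214-3p without any 1 array other than scrambled control replicate 2 (-1.45 to -1.29), and that between the precursors without either hsa-miR-214-3p replicate (+1.58 and +1.57). GALNT10 was called in 11 of 20 alternative settings and lost its call without any 1 of the 4 precursor arrays (+0.83 to +1.27), with normexp (+0.74) and with median scaling (+0.82). GALNT1 was called in 12 of 20 and lost its call without either hsa-miR-205-5p replicate (+1.19 and +1.21), without hsa-miR-214-3p replicate 2 (+0.87), with normexp (+0.37) and with median scaling (+0.98).

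Among N-glycan branching and galactosylation enzymes, 16 of 19 genes were tested, with 21 probes. With hsa-miR-205-5p, 2 were called higher and 1 lower, beside 4.14% and 8.05% of all probes, and 11 were below 0 (median -0.09, beside 0.05 over all probes). The higher ones were B3GNT8 and MGAT4A, a branching enzyme. MGAT4A was well above background on both hsa-miR-205-5p arrays and on 0 of the other 4, so it was tested only because of the group in which it is high, and its calls are no evidence of a difference. Its level with hsa-miR-205-5p was at least 2.20-fold that of the control and at least 1.67-fold that with hsa-miR-214-3p. B4GALT3, a galactosyltransferase, fell by 1.98 ± 0.18 through 1 probe and was at -0.91, under the 2-fold limit, through the other. The called probe was the brighter of them in the control (4.36 and 4.28) and with hsa-miR-214-3p (4.26 and 3.89), and the dimmer with hsa-miR-205-5p (2.38 and 3.37). With hsa-miR-214-3p, 0 were called higher and 1 lower, B3GNT8, beside 0.991% and 1.68% of all probes, and 10 were below 0 (median 0.14, beside -0.01). Between the precursors, 3 were called higher with hsa-miR-205-5p and 1 lower, beside 8.37% and 11.6% of all probes. They were B3GNT8, MGAT4A and the brightest probe of MGAT5 (+1.04), and, lower, the same B4GALT3 probe (-1.88). The other MGAT5 probe was too dim for more than a bound on both hsa-miR-205-5p arrays and was not called. MGAT5 was called in 11 of 20 alternative settings and lost its call with quantile scaling and in the authors' table (+0.87 in each), with median scaling (+0.81), with normexp (+0.88), and without hsa-miR-205-5p replicate 1 (+0.86) or either hsa-miR-214-3p replicate (+1.06 and +1.01). With normexp, MGAT4A was not called, at +0.48 against the control and +0.30 between the precursors. B4GALT3 lost its call against the control without hsa-miR-205-5p replicate 2 (-1.97) and that between the precursors without hsa-miR-214-3p replicate 2 (-1.81).

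In each of the remaining lists, at most 1 probe was called in a direction in any comparison, out of 8 tested probes of glycosphingolipid enzymes, 3 of fucosyltransferases, 5 for sialic acid synthesis and transport and 5 for sialidases and sialate, beside the shares of all probes given for the O-glycan enzymes (0.991% to 11.6%). Of the glycosphingolipid enzymes, 8 of 10 were tested. B3GNT5, which starts the lacto-series, rose with both precursors, by 1.32 ± 0.16 and 1.05 ± 0.16, and UGT8, a ceramide galactosyltransferase, was called between the precursors (+1.42) and against the control in neither comparison. B3GNT5 lost both calls with normexp (+0.75 and +0.63) and with median scaling (+0.93 and +0.88), that with hsa-miR-205-5p without hsa-miR-205-5p replicate 2 (+1.30), and that with hsa-miR-214-3p without any 1 array other than scrambled control replicate 2 (+0.94 to +1.06). UGT8 lost its call with normexp (+0.66) and without any 1 of the 4 precursor arrays (+1.30 to +1.55). Of the fucosyltransferases that act beside sialylation, 3 of 10 were tested, and FUT4 rose with both precursors, by 1.10 ± 0.16 and 1.19 ± 0.16, while the other two were not called. FUT4 lost both calls with normexp (+0.65 and +0.80). With median scaling (+0.71 and +1.02) it lost both too. That with hsa-miR-205-5p was also lost without any 1 of the 4 precursor arrays (+1.05 to +1.15), and that with hsa-miR-214-3p without any 1 array other than scrambled control replicate 2 (+1.09 to +1.29). Of 7 genes for the synthesis and transport of sialic acid, 5 were tested. SLC17A5, which exports sialic acid from lysosomes, fell with hsa-miR-214-3p by 1.21 ± 0.15, a call lost without any 1 array other than scrambled control replicate 2 (-1.23 to -1.16). Between the precursors SLC17A5 was called higher with hsa-miR-205-5p (+1.16). It lost that call with median scaling (+0.93) and without either hsa-miR-214-3p replicate (+1.18 and +1.14). Of 9 sialidase and sialate genes, 4 were tested. CTSA, the protective partner of the lysosomal sialidase, was at +0.02 with hsa-miR-205-5p through its brightest probe and fell by 1.44 ± 0.15 through the other, a call lost without hsa-miR-205-5p replicate 2 (-1.49). Of 10 further sialyltransferases, 2 were tested, ST6GALNAC5 (+0.33 with hsa-miR-205-5p and +0.94 with hsa-miR-214-3p) and ST8SIA1 (+0.14 and -0.47), and 0 were called in limma. The unadjusted p was 0.0128 for ST6GALNAC5 with hsa-miR-214-3p and 0.0316 for ST8SIA1 between the precursors.

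**Figure D5:**
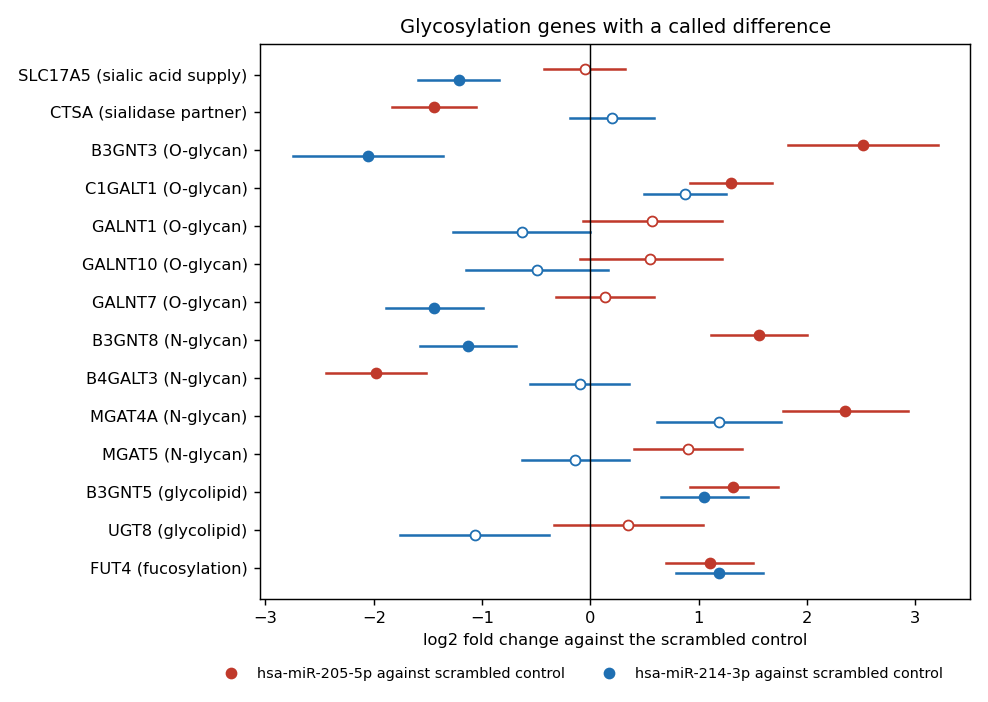
Log2 fold change against the scrambled control (horizontal axis) with 95% limma intervals, by gene list, with filled points for called differences. Each glycosylation gene with a called probe in at least 1 comparison is shown by that probe. For CTSA, GALNT1 and B4GALT3 that probe is not the brightest. B3GNT3 and B3GNT8 are filled on opposite sides of 0 for the 2 precursors, at 2.52 and -2.05 and at 1.56 and -1.13.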

How the data were processed

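The authors hybridized Cy3-labelled RNA of 6 samples to Agilent SurePrint G3 Human GE arrays and deposited what Agilent Feature Extraction 11.0 (per the submitters' processing notes) wrote for each. Its processed signal, as deposited, is a linear, background-subtracted spot intensity. A further deposited table (50739 rows) holds the authors' log2 values, with identical sorted values in every column and a correlation of at least 0.997 with the scanner values of each array. The study's methods name GeneSpring, a 2-fold limit and p under 0.05.

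Control and outlier spots (245 to 463 outliers per array) were dropped, spots of a probe were averaged, log2 was taken and each array's 75th percentile (35.1 to 58.0) was subtracted. Probes had to be well above background on both arrays of some group, and 4 with a missing value were dropped. RefSeq (GRCh38.p14) gave the miRNA sequences and positions. For the probes it was used only for gene names and chromosomes, since the array design is of another build. All 6 arrays entered limma 3.58.1 (lmFit and eBayes, R 4.3.3, data.table version 1.17.8) without a block for replicate number, and Benjamini-Hochberg adjustment ran over all kept probes. A call needed an adjusted p under 0.05 and at least 2-fold. Plots were drawn with matplotlib 3.10.9. The fit was tested on simulated data for bias, error rate and direction. An earlier requirement, that most of the simulated 3-fold changes be called, was not met for hsa-miR-205-5p against the control and was replaced by these checks, which were passed. Each simulated probe's spread was drawn from the residual spread of single probes, which overstates how much spreads differ between probes. The checks hold for that setting only. A changed probe can go without a call at this number of arrays, but the simulation cannot say how often.

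Every sialyltransferase probe is reported, a gene with several probes is given by its brightest with the other probes beside it, and other glycosylation genes are named where any probe was called, which for some was not the brightest. For ST3GAL1 and ST6GAL1 the rule names the 3 genes with the highest Pearson r. Some results for single genes are not reported here. The members and the lists were chosen with earlier results of these data known. The replicate numbers did not pair the samples, and all arrays lay on 1 slide in 1 scan. The alternatives changed the background correction (normexp, offset 50, on median signals), the scaling between arrays, the source of the values, the filter, the arrays fitted, the spread model, the replicate block, the call rule and the test.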

Additional observations from a re-analysis of the deposited data

How the results depend on the processing

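Of 708 recomputed values of the sialyltransferase probes, 620 kept direction and side of the threshold, 39 lost a call, 24 gained one and 25 changed sign, none of the last being called. Of 498 values of the other glycosylation probes called in the report, 359 kept the call, 139 lost it and 0 changed sign. The cause of these changes was not tested, except that leaving out arrays or the fit on 4 arrays leaves fewer samples, and no filter leaves more probes to adjust over. The fit without 1 array assumed the lone array to vary like the other groups. The comparison of protein sequences was not run.

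With hsa-miR-205-5p against the control, ST3GAL1 lost its call with normexp (-0.96), and at -1.23 with no filter (adjusted p = 0.0816), on only the 4 arrays compared (0.0520) and with the methods' t-test after adjustment (0.170). Leaving out 1 array gave -1.36 to -1.11. ST6GAL1 with hsa-miR-214-3p was called when scaled to the median (-2.00), to the 75th percentile of probes above background on all arrays (-1.85), and at -1.83 with the stricter filter, the intensity trend and unadjusted p; with normexp it was -0.82, not called, and leaving out 1 array gave -2.22 to -1.44.

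Probes called lower with hsa-miR-205-5p against the control, 3 in the report, numbered 1 with normexp, 5 scaled to the median, 0 with no filter, 1 on the 4 arrays and 0 with the adjusted t-test, and 0 to 3 leaving out 1 array; those called higher were 0 to 1. Against hsa-miR-214-3p, the 3 lower became 1 with normexp, 5 scaled to the median and 5 with no limit on fold change, and 1 to 3 leaving out 1 array. The 1 higher became 0 with normexp, no filter and the t-test, adjusted or not, 2 with unadjusted p, the second being the third ST3GAL3 probe, not well above background on any array compared, and 0 to 1 leaving out 1 array. With hsa-miR-214-3p against the control, the 0 lower became 1 when scaled to the median or to the percentile of probes above background, with the stricter filter, the intensity trend and the unadjusted t-test, and 2 with unadjusted p (the t-test's call and the second of these being the third ST3GAL3 probe, tested only because of the control); leaving out 1 array gave 0 to 1 lower and 0 to 1 higher. The 1 higher against the control was the second ST3GAL3 probe without scrambled control replicate 2, set against 1 array not well above background, so its sizes of 2.50 and 2.51 are no measurements.

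Sign changes came with some settings and over ranges when 1 array was left out. With hsa-miR-205-5p against the control they were at ST3GAL2 (-0.21 quantile, -0.37 median, -0.02 percentile of bright probes, -0.18 authors' table, range -0.40 to 0.43), the third ST3GAL3 probe (-0.07 quantile, -0.33 median, -0.06 authors' table, range -0.63 to 0.74), the second (-0.27 to 2.50), ST3GAL5 (-0.09 median, range -0.12 to 0.71) and ST6GAL1 (-0.33 to 0.05). With hsa-miR-214-3p they were at ST3GAL1 (-0.34 to 0.15) and the second ST3GAL3 probe (-0.26 to 2.51). Between the precursors they were at the second ST3GAL3 probe (0.11 normexp, range -0.10 to 0.08), ST3GAL4 (-0.15 median, range -0.17 to 0.33) and ST3GAL6 (0.02 normexp, range -0.11 to 0.11).

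With the replicate number as a block, the 3 sialyltransferase calls against the control became 2, since ST3GAL3 reached an adjusted p of 0.0508 in limma at -1.16, and ST3GAL1 kept -1.23 (0.0469), ST6GALNAC6 kept -1.30 (0.0310) and ST6GAL1 stayed at -1.83 (0.0805). With it, 0 of all probes were called with hsa-miR-214-3p. Deviations of same-numbered arrays correlated at 0.11, 0.01 and -0.05, so the numbers are not a pairing.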
